A study of Phyllotreta striolata with 15 samples.

Results

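Genes abundant in male adults of the striped flea beetle Phyllotreta striolata and low in every other group measured are described here, 177 of the 11862 genes in the deposited tables. A gene was a member if the authors' mean TPM in male adults was 2 or more and at least 5 times the highest of their means for eggs, larvae, pupae and female adults. TPM is a share of transcripts corrected for gene length, so it allows levels of different genes to be compared. Since these values chose the members, the excess in males is given below as a description with no test. P. striolata is a leaf beetle that feeds on crucifers, and the study set out to find genes that mark a developmental stage or a sex. RNA was taken from whole bodies of male adults, eggs, larvae, pupae and female adults, with 3 libraries per group. The labels used here name no strain, age or mating state and do not say whether bodies were pooled. In whole bodies, fewer cells of a type and less RNA per cell cannot be told apart.

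Male insects carry organs that females and immature stages lack in finished form, above all the mature testis and the accessory glands, which make the proteins of the seminal fluid. In Drosophila melanogaster, many genes are transcribed in the testis or the accessory gland and hardly anywhere else. The files give the flea beetle genes as protein-style identifiers with no names, and no annotation or sequence was used here. No role is therefore given to any member, and tissue markers could not be checked.

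Depth ranged from 18015995 to 23367276 counts in male libraries and from 16509113 to 32598781 counts in the 12 libraries of the other groups. Larva replicate 1 stood apart from the other larval libraries for these genes. In it 63 of the 177 members reached 1 CPM (a count scaled to a fixed library total), against 12 in larva replicate 2 and 22 in larva replicate 3. Of all genes, 85.2%, 77.7% and 80.2% did so in larva replicates 1 to 3. Numbers of genes at 1 CPM rest on library totals throughout, with no further scaling. Results that rest on larvae are therefore given with and without this library. The column names of the counts carry 1 prefix for males, females and larvae, another for pupae and yet another for eggs. What a prefix stands for is not stated. A difference between prefixes cannot be told apart from a difference between those stages.

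The members took 4.76%, 7.58% and 5.95% of the counts in male replicates 1 to 3. In females they took 0.0496%, 0.0427% and 0.0495%, and in pupae 0.0503%, 0.0388% and 0.0474%. Larvae held 0.0712% in replicate 1 and 0.00841% and 0.0157% in replicates 2 and 3, and eggs 0.0169%, 0.00765% and 0.00893%. All male libraries lay far above all others, and larva replicate 1 was the highest library outside males.

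**Figure D1:**
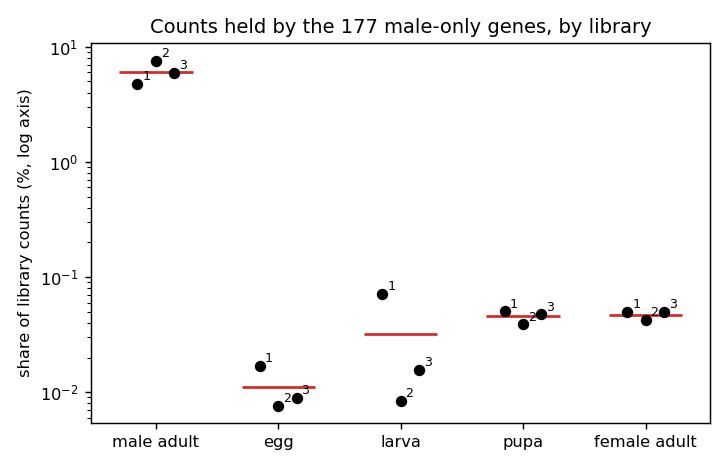
Share of each library's counts held by the 177 male-only genes, in percent on a log axis, with 1 point per library, its replicate number beside it and a red line at the group mean (n = 3). Male libraries sit at 4.76% to 7.58%, and larva replicate 1, at 0.0712%, is the highest of the other 12 libraries.

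Summed over the members, the authors' mean TPM came to 111653 in males, or 11.2% of all male transcripts. A handful of genes made up most of it. The top gene held 39.4% of the members' male TPM, the top 5 held 74.4% and the top 10 held 80.6%. The median member stood at 40.9 TPM, with quartiles of 17.5 and 153 TPM. There were 15 members at 1000 TPM or more and 24 under 10 TPM. Of the 10 genes with the highest male TPM in the whole table, 4 were members.

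CAG9854698.1 had the highest level, 44005 TPM in the authors' male mean. It had 18078, 26427 and 20609 CPM in the 3 male libraries (here and below CPM of named genes is scaled by TMM). The other 12 libraries held at most 0.37 CPM, in egg replicate 2. CAG9853954.1 followed in TPM, with 3492, 7494 and 5716 CPM in male libraries and at most 0.87 CPM elsewhere, in larva replicate 1. CAG9853951.1 had 2754, 4123 and 3327 CPM in males and at most 4.07 CPM elsewhere, in larva replicate 2. For these 3 genes the male libraries were high throughout, and the 12 others stayed near 0.

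CAG9862378.1 had 5829, 7086 and 5948 CPM in male libraries and at most 0.79 CPM elsewhere. CAG9853711.1 had 1247, 1561 and 1388 CPM in males and at most 1.04 CPM elsewhere, in female replicate 1. The male libraries differed by less than 2-fold from each other for both genes, and no other library came near them.

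Below the top, separation from the other groups ranged widely. In the authors' means, 78 members stood 5 to 10 times above their highest other group, 40 stood 10 to 100 times above, 25 stood 100 to 1000 times above and 18 at least 1000 times above. The remaining 16 had no count in any of the 12 other libraries, which together hold 294294953 counts, so that a pooled level of up to 0.0102 CPM is allowed (3 counts, counting error only). CAG9862382.1 led these 16 by TPM, with 492, 742 and 678 CPM in male libraries. CAG9854353.1 came next, with 52.4, 82.95 and 72.3 CPM in male libraries. Summed over the 3 male libraries, the 16 genes had between 160 and 40425 counts, so each was well detected in males.

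By library, every male value lay above every value of the other groups for 166 of the 177 members, against 6.88% of all genes. The rule used that contrast, so nothing is read from it. In 8 of the 11 members whose libraries overlapped, larva replicate 1 was the highest library outside males. With larva replicate 1 set aside, 173 members were separated.

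**Figure D2:**
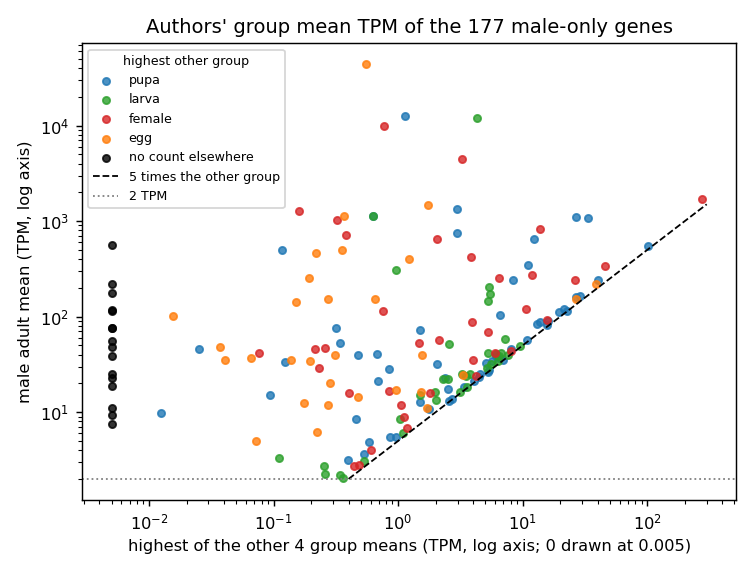
Authors' mean TPM in male adults against the highest of the other 4 group means for each of the 177 members, both on log axes, coloured by which group is that highest one. The dashed line marks 5 times the other group and the dotted line 2 TPM, and the 16 genes with no count elsewhere are drawn at 0.005.

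The limits cut through a continuum. Just inside the 5-fold limit were CAG9860491.1, with 114 TPM in males and 22.8 in pupae, and CAH1159001.1, with 26.1 TPM in males and 5.22 in pupae. Both are absent from the authors' deposited list of male genes, which holds the other 175 members and no further gene. Just outside were CAG9856136.1, with 6.13 TPM in males and 1.23 in females, and CAG9859875.1, with 7.63 TPM in males and 1.54 in pupae. At the lower end CAG9860180.1 entered at 2.03 TPM in males, and CAG9858092.1 at 1.51 TPM did not.

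Most genes with a strong excess over females were kept out by another group. In the authors' means 1118 genes had 2 TPM or more in males and at least 5 times the female level, and the 177 members were 15.8% of them. Pupae alone kept out 605, larvae alone 85 and eggs alone 5, and pupae together with larvae kept out another 183. When TPM was rebuilt per library from the counts and larva replicate 1 was left out, 69 genes entered and 242 met the limits in all. These 69 had a median of 16.8 TPM in males and 14.2 TPM in larva replicate 1, and of 0 TPM in larva replicates 2 and 3.

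Members were grouped by which other group came second in the authors' means. Pupae came second for 59 members, female adults for 37, larvae for 35 and eggs for 30, beside the 16 with no count elsewhere. The distance to second place differed between these sets. The median ratio of the male mean was 6.79 to the pupal mean in the first set and 7.71 to the larval mean in the larval set. It was 22.7 to the female mean in the female set and 205 to the egg mean in the egg set. The egg set had a median of only 0.30 TPM in eggs, so its ratio rests on values near 0. In 15 of its 30 genes 1 egg library held at least 80% of the egg TPM. That held for 7 genes of the pupal set and 5 of the female set.

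The leaders of these sets by male TPM were mostly the abundant genes already named. CAG9857226.1, second in the pupal set, had 875, 1099 and 1169 CPM in male libraries and 3.33, 1.59 and 2.34 CPM in pupal ones. CAG9853953.1, second in the larval set, had 151, 215 and 170 CPM in males and 0.35, 0.05 and 0.11 CPM in larvae. CAG9862380.1, second in the egg set, had 424, 1017 and 1013 CPM in males and 1.44, 0.80 and 0.35 CPM in eggs. For these 3 genes every male library was more than 100-fold above every library of the second-placed group.

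Residual levels outside males were low in most cases. The rule capped them against the male mean, so the numbers below are a description and nothing is read from their lying under those of all genes. At 1 TPM or more in the authors' means were 72 members in pupae, 65 in larvae, 38 in females and 22 in eggs, where 75.7% (eggs) to 89.1% (pupae) of all genes reached that level. In no library outside males did 77 members reach 1 CPM, beside 100 of all 10393 genes with 2 TPM or more in males. The rule favours such genes. The 77 had a median male level of 39.8 TPM, close to that of all members.

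A single gene carried much of what remained in females. CAG9863531.1 had 1300, 2417 and 1998 CPM in male libraries and 218, 215 and 214 CPM in female libraries (this gene and the next were chosen after their values were seen). It alone made up 50.9% of the members' summed TPM in females. CAG9858497.1 did the same to a lesser degree in pupae, with 534, 716 and 564 CPM in male libraries and 146, 118 and 81.04 CPM in pupal libraries. It was 15.3% of the members' summed TPM in pupae.

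**Figure D3:**
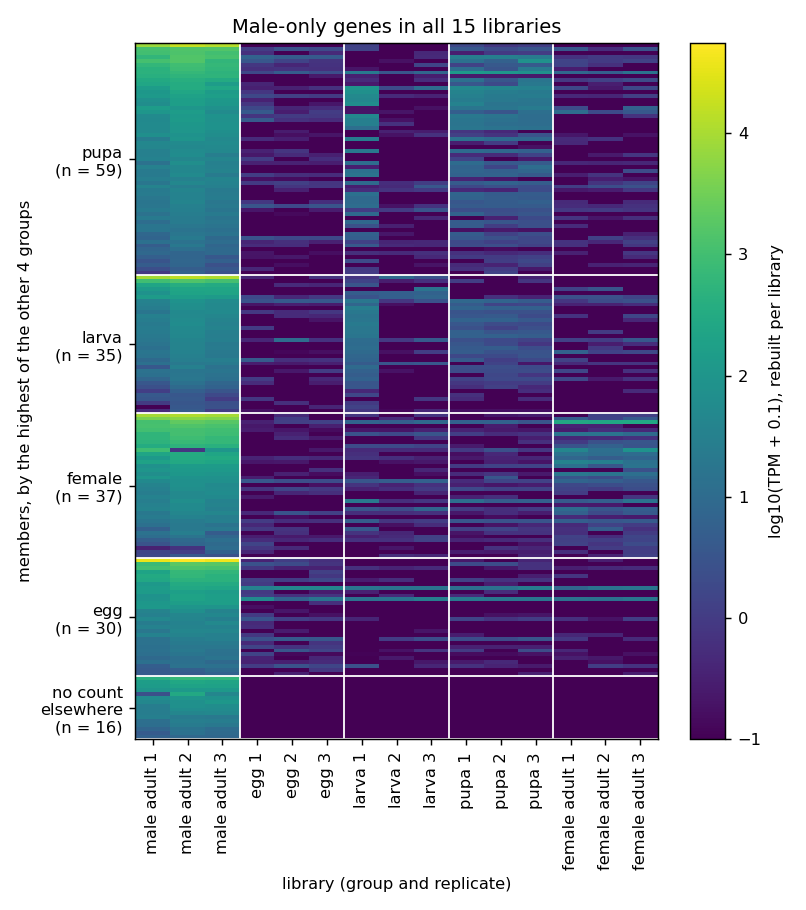
Levels of the 177 members (rows) in all 15 libraries (columns), as log10 of TPM rebuilt per library plus 0.1, ordered by which other group came second and then by male level. Larva replicate 1 shows signal for many members of the pupal and larval sets where larva replicates 2 and 3 are dark.

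The larval set largely followed 1 library. Of its 35 genes, 26 had at least 80% of their larval TPM in larva replicate 1, 2 in larva replicate 3 and none in larva replicate 2. Across all members, 55 lay less than 5 times under the male mean in larva replicate 1, against 0 and 1 in larva replicates 2 and 3. The next highest library was pupa replicate 1, with 19 such members, against 3 and 7 in pupa replicates 2 and 3. CAG9865097.1 had 83.9, 174 and 107 CPM in male libraries and 93.4 CPM in larva replicate 1, but none in larva replicates 2 and 3. Its pupal libraries held 30.5, 19.9 and 15.8 CPM, so larva replicate 1 was above each of them and within the range of the males.

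The members seen in larva replicate 1 and those seen in pupae overlapped in part. There were 63 members at 1 CPM or more in larva replicate 1 and 47 at that level in all 3 pupal libraries. The 35 genes in both are 55.6% of those in larva replicate 1 and 74.5% of those in pupae. Over all genes the same shares were 92.6% and 93.3%, as 85.2% of all genes reached 1 CPM in larva replicate 1 and 84.6% did so in all 3 pupal libraries. The rule capped the members in larvae and pupae, so nothing is read from their shares lying under those of all genes. In female replicates 1 to 3, 30, 24 and 31 members reached 1 CPM, and 22 did so in all 3 libraries. Of all genes, 81.5%, 80.7% and 82.4% reached 1 CPM in female replicates 1 to 3.

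Within males, most members had the same order of libraries. Male replicate 2 was the highest male library for 138 members (78.0%), on TPM rebuilt per library, and male replicate 1 the lowest for 142 (80.2%). Among the 10216 other genes at 2 TPM or more in males, replicate 2 was highest for 43.02% and replicate 1 lowest for 42.003%. The median log2 ratio of replicate 2 to replicate 1 was 0.77 for the members and 0.06 for the other genes, and that of replicate 3 to replicate 1 was 0.49 and 0.02. The median coefficient of variation over the 3 male libraries was 32.9% for members, with quartiles of 21.2% and 42.4%, and 17.5% for the other genes. These are descriptions, as the libraries are 3 and members share them.

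A pair of members, chosen after their values were seen, had very uneven male libraries. CAG9864909.1 had 763 and 82.7 CPM in male replicates 1 and 3 but 0.57 CPM in male replicate 2. Female libraries held 23.3, 7.06 and 46.5 CPM of it, all above male replicate 2, so its place in the set rests on male replicate 1. CAG9853952.1, one of the 16 with no count elsewhere, had 0.75, 84.8 and 13.0 CPM in male replicates 1 to 3.

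The rule did not set the other 4 groups against each other, so comparisons among them were tested. It did cap each of these groups against the male mean, so genes above that limit in any of them are absent. The numbers of members called depend in part on that choice. The test was edgeR's quasi-likelihood test over all genes. Calls needed an adjusted p (Benjamini-Hochberg) under 0.05 and a fold of at least 2. After the filter on low counts 171 of the 177 members were tested among 11440 genes, and the 6 that dropped out had 139 counts or fewer in males. The 4 comparisons share groups with each other, so their counts are not independent. A member can pass the filter through its male counts alone, and many are near 0 in both groups compared, where a call is hardly possible. The share of all genes called is given beside each count for scale, and nothing is read from the members' share being near or under it.

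Larvae were set against eggs. There 57 of the 171 members were called higher in larvae (33.3%) and 10 lower (5.85%), beside 31.9% and 27.3% of all genes tested. The members' median log2 difference was 2.12 and that of all genes 0.04, with genes absent from 1 side set at their lower bound and 31 members at or under 3 counts on both sides left out. Without larva replicate 1 the medians were 0.03 for members and -0.28 for all genes, with 61 members left out. In that fit 176 members were tested, and 25 were called higher and 16 lower, beside 2968 and 3405 of 11508 genes.

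CAG9863636.1 had 8.29, 8.15 and 7.31 CPM in larval libraries against 0 counts in eggs, which puts larvae at least 217-fold higher by edgeR (adjusted p = 4.59e-05). The 3 larval libraries agreed closely, and males held 85.02, 212 and 224 CPM. CAG9862467.1 had 15.2, 0.32 and 0.37 CPM in larvae against 0 counts in eggs, which puts larvae at least 99.1-fold higher by edgeR (adjusted p = 0.00235). Its level in larvae rested on replicate 1, and the fitted log2 difference was 9.97 with that library and 6.10 without it. The fitted values depend on a prior count, as eggs are at 0. No member called lower in larvae met the rule for naming, which asked for 5 CPM in the higher group.

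Pupae were next set against larvae. With all libraries 16 members were called higher in pupae (9.36%) and 13 lower (7.60%), beside 20.3% and 20.3% of all genes. Without larva replicate 1 the number higher in pupae was 64, and 11 were lower, beside 3203 and 2197 of 11508 genes. The members' median log2 difference was -0.33 with all libraries, and that of all genes 0.15, with absent genes at their bound and 37 members left out as before. Without larva replicate 1 the members' median turned to 1.87, with 41 left out, and that of all genes was 0.34, so the direction of the members' median rests on that library.

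CAG9864557.1 had 16.1, 6.69 and 86.2 CPM in pupae and 0, 0.14 and 0 CPM in larvae, a log2 difference of 9.22 ± 1.37 (SE, adjusted p = 0.00016, edgeR). The 3 pupal libraries differed more than 10-fold among themselves, and males held 1292, 1623 and 680 CPM. CAG9858211.1 was steadier, with 20.3, 19.3 and 23.9 CPM in pupae and at most 0.17 CPM in larvae, a log2 difference of 7.95 ± 1.54 (SE, adjusted p = 0.00106, edgeR). In the other direction CAG9863636.1, the larval gene above, had no count in pupae and was at least 217-fold lower there (adjusted p = 8.33e-05, edgeR). CAH1168151.1 had 0, 1.55 and 0.13 CPM in pupae and 8.64, 5.13 and 4.68 CPM in larvae, a log2 difference of -3.45 ± 1.06 (SE, adjusted p = 0.0164, edgeR). That call was lost without pupa replicate 3 (log2 difference -2.98, adjusted p = 0.0599, edgeR), and the log2 difference was -6.39 without pupa replicate 2.

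Female adults were set against pupae, the group that came second most often. Of the members, 19 were called higher in females (11.1%) and 47 lower (27.5%), beside 23.5% and 26.8% of all genes. The median log2 difference was -1.91 for members and -0.10 for all genes, with absent genes at their bound and 32 members left out. The number lower was 27 without female replicate 1, beside 2510 of 11499 genes, and 26 without female replicate 2, beside 2398 of 11507. It was 66 without larva replicate 1, which belongs to neither group but enters the same model, beside 3167 of 11508 genes.

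CAG9861219.1 had 16.6, 14.5 and 6.30 CPM in females and at most 0.15 CPM in pupae, a log2 difference of 7.32 ± 0.79 (SE, adjusted p = 2.34e-05, edgeR). CAG9863637.1, whose identifier follows that of the larval gene CAG9863636.1, had 10.4, 8.64 and 7.65 CPM in females and at most 0.39 CPM in pupae, a log2 difference of 5.85 ± 1.24 (SE, adjusted p = 0.00269, edgeR). The 2 neighbouring identifiers thus had different second groups, larvae for one and females for the other. CAG9865097.1 and CAG9860491.1 had no count in females. They were at least 563-fold and 353-fold lower in females than in pupae, at 22.1 ± 7.61 and 13.9 ± 7.86 CPM in pupae (SD, n = 3; adjusted p = 0.0191 and 0.0190, edgeR).

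Female adults and larvae share a prefix in the column names of the counts and were compared last. There 16 members were called higher in females (9.36%) and 40 lower (23.4%), beside 16.5% and 20.3% of all genes. Without larva replicate 1 the numbers were 17 higher and 10 lower, beside 2195 and 1433 of 11508 genes, so the number lower moved by more than 1.5 times with that library. The number lower was also 9, 8 and 18 without female replicates 1, 2 and 3, beside 1667 of 11499, 1585 of 11507 and 1727 of 11504 genes. It was 25 without pupa replicate 2, pupa replicate 3 or male replicate 3, beside 2104 of 11496, 2113 of 11493 and 2091 of 11485 genes. Scaling moved the split too: with library size alone 21 members were higher and 30 lower, beside 3712 and 1426 of all genes. The members' median log2 difference was -1.59 and that of all genes -0.11, with absent genes at their bound and 39 members left out. Without larva replicate 1 the members' median turned to 0.22, with 73 left out, and that of all genes to 0.15.

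CAG9861219.1 was again higher in females, with at most 0.11 CPM in larvae and a log2 difference of 7.29 ± 0.82 (SE, adjusted p = 6.7e-05, edgeR). CAG9859123.1 had 16.5, 15.2 and 11.0 CPM in females and at most 0.44 CPM in larvae, a log2 difference of 6.52 ± 0.99 (SE, adjusted p = 0.000393, edgeR). CAG9863636.1 had no count in females and was at least 203-fold lower there than in larvae (adjusted p = 0.000191, edgeR). CAG9859817.1 had 0.85, 0.07 and 0.86 CPM in females and 128, 2.24 and 9.73 CPM in larvae, a log2 difference of -6.29 ± 1.37 (SE, adjusted p = 0.00346, edgeR). Without larva replicate 1 this difference was -3.26.

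Members were shorter than most genes, by a measure the rule did not use directly. The authors' TPM and the counts together give each gene's length relative to the others, as TPM divides counts by length. On a scale where the median gene is 1, the members had a median of 0.49 with quartiles of 0.30 and 0.83, and all 11794 genes with a value had quartiles of 0.62 and 1.63. Of the members 141 (79.7%) were under 1, and 90 (50.8%) were under 0.5, against 17.6% of all genes. The 941 genes with at least 5 times the female level in males that were not members had a median of 0.76, and 26.5% of them were under 0.5. The 16 genes with no count elsewhere had a median of 0.26. For a given number of reads a short gene has a higher TPM, so the 2 TPM minimum admits short genes at fewer counts. All 10393 genes at 2 TPM or more in males had a median of 1.04, with quartiles of 0.65 and 1.71. The part of the minimum in the members' shorter length was not tested. With CPM in place of TPM, 183 genes met the same limits, 157 of them members.

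**Figure D4:**
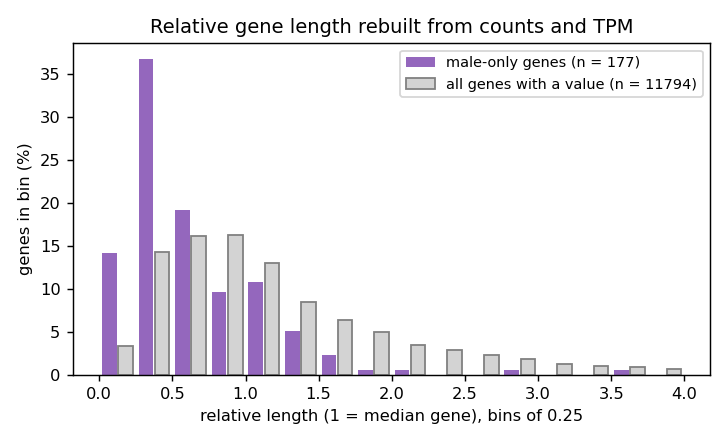
Relative gene length, rebuilt from the deposited counts and TPM and set to 1 for the median gene, in bins of 0.25, as the percent of the 177 members (purple) and of all 11794 genes with a value (grey). Values of 4 or more are not drawn, and the members pile up below 0.5, where 50.8% of them lie against 17.6% of all genes.

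Many members carried neighbouring identifiers. With the identifiers of the table put in numerical order, 59 of the 177 members (33.3%) had another member directly before or after them, against 272 of the 11685 other genes (2.33%). These 59 formed 20 rows of 2 or more, 7 of them with 3 or more, and held 85.6% of the members' summed male TPM. Numbers that no gene carries were skipped, so a row can span gaps, as from CAH1181574.1 to CAH1181586.1 in a row of 2. Whether neighbouring identifiers are neighbours in the genome is not given in the files, and near-identical copies in such rows could share reads.

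The longest row had 8 members, from CAG9853948.1 to CAG9853956.1, with male levels between 37.1 and 12639 TPM and 26914 TPM in sum. It held CAG9853954.1 and CAG9853951.1, next to the top gene in male TPM. The next row had 6 members, from CAG9862378.1 to CAG9862383.1, between 11.2 and 10005 TPM, and 4 of these 6 had no count outside males. Levels within a row differed by more than 100-fold in both cases. Of the 16 genes with no count elsewhere, 12 lay in such rows, and so did 7 of the 10 members with the highest male TPM. CAG9854698.1 itself stood beside another member, and that row of 2 summed to 44470 TPM.

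**Figure D5:**
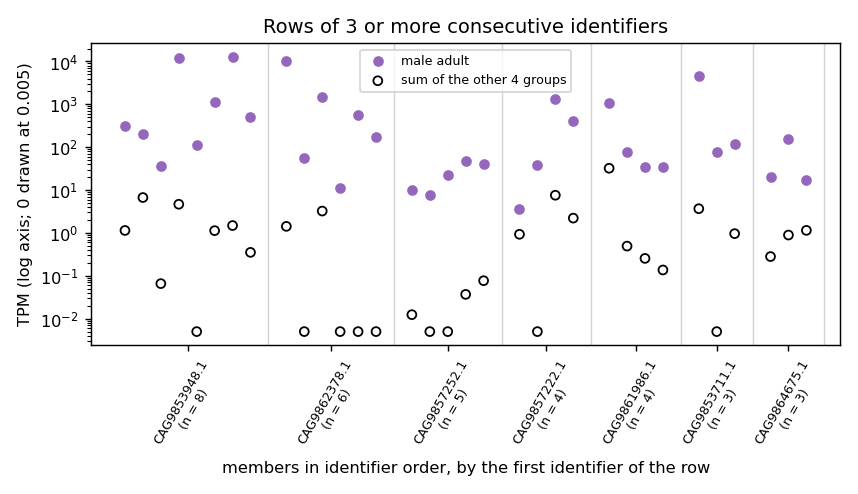
Authors' mean TPM in male adults (filled) and summed over the other 4 groups (open), on a log axis, for the 33 members in the 7 rows of 3 or more members adjacent in identifier order, each row named by its first identifier. Rows can span gaps in the numbering. Sums of 0 are drawn at 0.005, and male levels span 37.1 to 12639 TPM within the row of 8.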

How the data were processed

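The authors deposited raw read counts per gene for 15 libraries (3 per group), with fastp, HISAT2 and featureCounts named as tools in the submitters' processing notes. Versions, strand and genome build were not given in the sources used here. They also deposited TPM, averaged by them over each group, and 5 lists of identifiers. Groups come from the sample titles. Members and lists were chosen with earlier results of these data known. TPM per library was rebuilt by finding 1 length per gene that links counts to the authors' means (median deviation 0.0562%, 95th percentile 1.38%, largest 52.5%, over means of 1 TPM or more). Where a gene was at 0 on 1 side, folds are bounds against 3 counts summed over that side. SEs were taken from the log2 difference and its F.

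Counts were filtered with filterByExpr, scaled by TMM and fitted in 1 model of 5 groups (edgeR 4.0.16, R 4.3.3), and checked on simulated data. Named genes were the 5 highest in males, the 2 highest of each second-place set, those at the limits, members absent from the authors' list and, per comparison, the 2 largest called rises and falls with no overlap and 5 CPM in the higher group. Alternatives were other scalings, no filter, DESeq2 1.42.0, a replicate block, no minimum fold, other limits and each library left out. Medians without larva replicate 1 were added after seeing the data.

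Replicate pairs within a group differed beyond sampling noise (chi-square over its degrees of freedom at least 86.6), so none was treated as a copy. The design text calls replicates biological. Their separate origin is not stated, so the p-values cover only spread between libraries, in part perhaps technical. Replicate numbers are shared between groups. For pupae and larvae, same-numbered libraries deviated together from their group means (r across genes 0.45, 0.20 and 0.24). So did pupa replicate 3 with larva replicate 2 (0.21) and pupa replicate 2 with larva replicate 3 (0.12). Replicate 1 of either group deviated against replicates 2 and 3 of the other (-0.39 to -0.20). These values therefore do not pair replicates 2 and 3 by number, and no label says what a number stands for.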

Additional observations from a re-analysis of the deposited data

How the results depend on the processing

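Of 190 alternative values for the number of members and the counts of members called, 170 stayed within 1.5 times the main value. Members numbered 460 at a fold limit of 3, 99 at 10, and 103 when the highest single library of each other group replaced its mean. They numbered 135 to 242 with 1 library left out, highest without larva replicate 1 and lowest without male replicate 2. With 1 library left out, members called higher and lower ranged from 25 to 65 and 6 to 16 (larvae against eggs), 14 to 64 and 9 to 14 (pupae against larvae), 15 to 21 and 26 to 66 (female adults against pupae), and 11 to 17 and 8 to 49 (female adults against larvae). In larvae against eggs the number higher was also 36 and 28 without egg replicates 2 and 3, and the number lower 6 without egg replicate 1. With a replicate block, 27 members were called higher in larvae than in eggs and 9 lower in female adults than in larvae. Their same-numbered libraries did not deviate together throughout (r across genes from -0.06 to 0.12 and from -0.05 to 0.06). The block moved no other count by over 1.5 times, including pupae against larvae, where it gave 17 higher and 12 lower. The medians that follow are of fitted values over all genes tested, with none set at a bound or left out. Library size alone moved the median log2 difference of all genes from 0.02 to -0.49 in larvae against eggs and from 0.15 to 0.33 in pupae against larvae. It moved that median from -0.09 to 0.42 in female adults against pupae and from -0.10 to 0.57 in female adults against larvae. Members called were then 48 higher and 15 lower, 16 and 12, 21 and 40, and 21 and 30. Of 280 alternative values for the 14 named differences, 279 kept direction and call, the exception being CAH1168151.1 without pupa replicate 3. Depth limits what can be called for members with few counts on both sides, and intervals and floors cover counting error only.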

Other observations

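The same limits applied to female adults and to pupae gave 87 and 483 genes. In the authors' means the 177 male genes summed to 111653 TPM in males, the 87 female genes to 31123 TPM in females and the 483 pupal genes to 313606 TPM in pupae. The median male gene, at 40.9 TPM in males, was below the median female gene, at 110 TPM in females, and the median pupal gene, at 144 TPM in pupae. The single highest gene of each set stood at 44005 TPM in males, 7517 TPM in females and 24676 TPM in pupae. No count in any library of the other groups was found for 16 male genes (9.04%), for 4 pupal genes (0.828%) and for none of the female genes. A ratio of 100 or more over the highest other group, counting those at 0, was reached by 59 male (33.3%), 12 female (13.8%) and 115 pupal genes (23.8%). Median relative length was 0.49 for male, 1.05 for female and 0.83 for pupal genes. These differences between sets were not tested.

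Neighbouring identifiers were also common among the 941 genes that had at least 5 times the female level in males and were not members. Of these, 288 (30.6%) had another of the 941 directly before or after them, against 13.6% of the remaining genes. The 177 members showed 33.3% against 2.33%, with a set of smaller size.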
